A study of Caenorhabditis elegans with 2 samples.

Results

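The genes described here include those for the small nuclear RNAs of the spliceosome and the spliced leader RNAs of Caenorhabditis elegans. The set was all 129 nuclear genes of biotype snRNA in the RefSeq annotation of build WBcel235 (ce11), out of 46890 nuclear genes. By symbol or by a short core word in the gene they fell into 24 U6, 13 U1, 20 U2, 5 U4, 12 U5, 12 SL1, 18 SL2 and 10 SmY genes, and 15 genes fitted none of these classes. The data were ChIP-seq peak lists made with an antibody named rpc-1, after the largest subunit of RNA polymerase III, in whole young adult worms of the wild-type strain N2, with males and females pooled. There was 1 group with 2 biological replicates and no second genotype, treatment or age, so no test between conditions was possible. Values at a gene in a whole animal are an average over tissues, and occupancy in fewer cells cannot be told apart from less occupancy per cell.

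Small nuclear RNAs and their proteins recognise splice sites and carry out splicing. U6 RNA forms the catalytic core together with U2, and in animals it is made by RNA polymerase III from a promoter lying wholly before the gene, with a TATA box and a proximal sequence element bound by the SNAP complex. U1, U2, U4 and U5 are made by RNA polymerase II from promoters with a related proximal element and no TATA box, and carry a run of T that encodes the binding site of the Sm proteins. In nematodes, spliced leader RNAs are Sm-class RNAs too: SL1 is trans-spliced onto the first exon of many messages, SL2 onto messages from downstream genes of operons, and SmY RNAs are linked to that reaction.

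The U6 gene with the strongest peak, W05B2.8 (chrIII:10989679-10989780), had the commonest U6 sequence, which 14 of the 24 U6 genes carried in full and 3 more carried without its last base. F35C11.9 (chrII:8242110-8242204) was the U6 gene least like it, at 25 edits.

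Since most U6 genes were identical within the gene, the 80 bases before the first base of the gene were compared. The promoters below belong to 3 U6 genes with a thresholded peak and 4 without, and are shown because all but F32D1.12 belong to copies with the same gene sequence that differed in signal. F32D1.12 is a diverged copy, shown for contrast. Capitals mark TATATA within 50 to 15 bases before the start and TGTC within 80 to 40 bases before it. Where a window held several TGTC, only the one nearest to its usual place at U6 genes is in capitals. K09B11.16 and K09B11.11 thus also hold the TGTC marked in K09B11.15, left in lower case.
W05B2.8, with a peak, at chrIII:10989599-10989678: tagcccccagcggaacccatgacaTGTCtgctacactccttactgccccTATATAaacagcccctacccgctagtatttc
F54C8.9, with a peak, at chrIII:9447860-9447939: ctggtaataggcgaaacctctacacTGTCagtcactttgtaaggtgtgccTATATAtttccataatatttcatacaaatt
F54C8.8, without a peak, at chrIII:9445831-9445910: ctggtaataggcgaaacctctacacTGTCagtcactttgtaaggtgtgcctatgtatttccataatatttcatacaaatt
K09B11.16, with a peak, at chrIV:13443665-13443744: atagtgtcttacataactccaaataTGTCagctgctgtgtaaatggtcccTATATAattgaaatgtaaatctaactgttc
K09B11.11, without a peak, at chrIV:13435887-13435966: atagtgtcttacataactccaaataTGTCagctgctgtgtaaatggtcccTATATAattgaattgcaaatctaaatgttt
K09B11.15, without a peak, at chrIV:13443497-13443576: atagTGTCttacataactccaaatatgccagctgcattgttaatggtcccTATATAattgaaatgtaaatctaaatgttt
F32D1.12, without a peak, at chrV:4354360-4354439: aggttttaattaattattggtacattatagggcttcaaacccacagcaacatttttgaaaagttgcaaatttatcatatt

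A gene was called occupied where a peak of the authors' thresholded list, made from both replicates, overlapped it by at least 1 base. Of the 129 genes, 18 were occupied, by 22 thresholded peaks. Occupied genes numbered 11 of 24 among U6 (45.8%, exact 95% interval 25.6 to 67.2%) and 6 of 80 among the U1, U2, U4, U5, SL1 and SL2 genes together (7.50%, interval 2.8 to 15.6%). These intervals are Clopper-Pearson intervals and cover counting error only. They did not overlap. Copies of a class share sequence and, in clusters, neighbours, so they are not independent, and no p-value was computed. Over all nuclear genes, 3.82% were occupied. Genes of 60 to 200 bp outside the snRNA set, close to the members in length, were occupied in 15.1% of cases, and in 8.02% once tRNA and other annotated polymerase III genes were set aside. The polymerase II classes together lay near the latter share, and U6 lay above all 3. Nuclear tRNA genes, the main templates of the polymerase, were occupied in 566 of 612 cases (92.5%, interval 90.1 to 94.4%), a share above that of U6.

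Within the polymerase II classes, 1 of 13 U1 genes, 1 of 20 U2 genes and 4 of 18 SL2 genes were occupied. No U4, U5 or SL1 gene was. The interval for SL2 was 6.4 to 47.6%, and at 1 of the 4, sls-2.9, the summit lay in a tRNA gene. The U1 genes T27E4.12 and T27E4.22, both unoccupied, overlap on the same strand. A count of 0 allows a share of up to 60% for the 5 U4 genes (exact upper limit 52.2%). For the 12 U5 or the 12 SL1 genes it allows up to 25% (exact upper limit 26.5%). No SmY gene of 10 was occupied, which allows up to 30% (exact upper limit 30.8%). Of the 15 unclassed genes 1 was, M163.13.

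**Figure D1:**
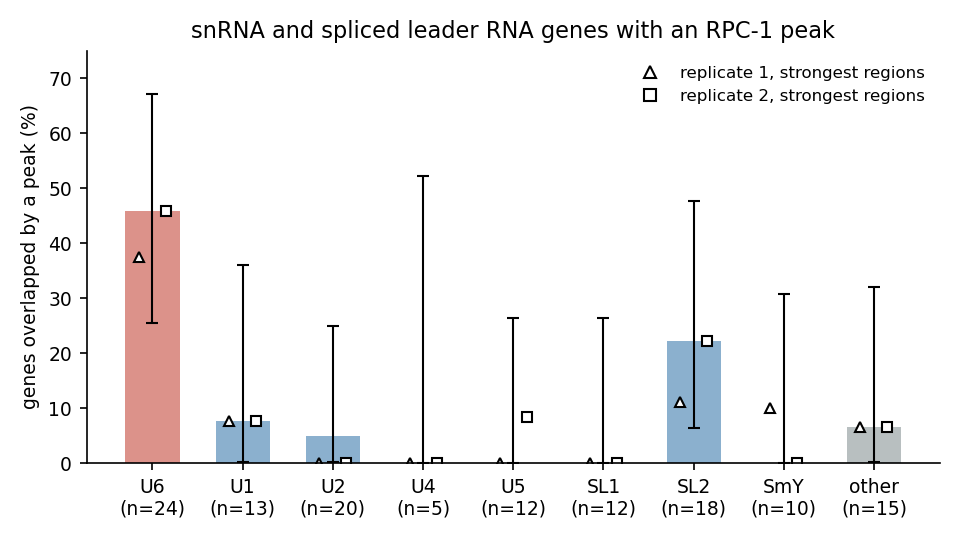
Percent of genes of each class overlapped by a thresholded peak (bars, with exact 95% intervals) and by as many of the strongest regions of each replicate's own list (triangles, replicate 1; squares, replicate 2). U6 reached 45.8% in the thresholded list, and SL2, at 22.2% (interval 6.4 to 47.6%), was the next class.

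The replicates were compared by taking from each replicate's own list as many of its strongest regions as there were thresholded peaks. Replicate 1's regions met 9 of 24 U6 genes (37.5%) and 3 of 80 polymerase II class genes (3.75%), against 3.8% of all nuclear genes. Replicate 2's regions met 11 of 24 U6 genes (45.8%) and 6 of 80 polymerase II class genes (7.50%), against 3.77% of all nuclear genes. In both replicates the U6 share was therefore the higher one. The lists were called separately and their signal values are on different scales, so only order within a list was compared.

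The 11 occupied U6 genes covered a wide range of signal, the value that the authors' deposited lists give each peak. Signals ran from 38.4 to 888 with a median of 186, in a list whose weakest, median and strongest peaks had 35.6, 145 and 1269. The median U6 peak lay at the 55.2nd percentile of the thresholded list. The median peak over a tRNA gene lay at the 74.9th percentile.

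W05B2.8 lies in an intron of dhc-4, a dynein heavy chain gene, on the same strand. It had a signal of 888, rank 17, with 293 in replicate 1 (rank 14 of that replicate's list) and 580 in replicate 2 (rank 21). Both replicates put it above every other U6 copy. Y9C9A.111 (chrIV:4930954-4931055), in an intron of Y9C9A.8, had a signal of 474, with 164 and 305 in the replicates. F54D8.7 (chrIII:5080798-5080898), between protein-coding genes with alh-1 within 500 bp, had 323, with 113 and 212. T08B6.62 (chrIV:4885549-4885649), in an intron of the receptor gene str-166 on the opposite strand, had 257, with 67.6 and 197. C28A5.7 (chrIII:4426854-4426955), in an intron of C28A5.6, had 249, with 79.4 and 164. These 5 copies ranked between 14 and 560 in replicate 1 and between 21 and 515 in replicate 2.

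The next 3 copies formed a middle level. K09C6.12 (chrV:859091-859192), in an intron of K09C6.2, had a signal of 186, with 50.4 in replicate 1 and 124 in replicate 2. Y17G9A.85 (chrIV:4864635-4864735), between protein-coding genes with str-172 nearest, had 159, with 54.7 and 102. R07E5.16 (chrIII:4414185-4414286), in an intron of mpc-1, a mitochondrial pyruvate carrier gene, had 156, with 47.4 and 106. Their order differed between the replicates, so these 3 are not ranked against each other.

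The 3 weakest copies sat in groups of U6 genes. F54C8.10 (chrIII:9449569-9449670), in an intron of F54C8.6, had a signal of 73.1, with 20.3 in replicate 1 (rank 1061) and 49.4 in replicate 2 (rank 887). F54C8.9 (chrIII:9447758-9447859), in an intron of the same gene, had 55.7, with 13 (rank 2350) and 44.7 (rank 932). F54C8.9 was overlapped by 2 thresholded peaks, and the stronger one also overlapped the ncRNA gene F54C8.11. K09B11.16 (chrIV:13443745-13443846), in an intron of mam-3, had 38.4, rank 1244, close to the lower end of the thresholded list. Replicate 1's list of 30000 regions held none over K09B11.16, whereas replicate 2 had 32.5 (rank 1088). F54C8.9 and K09B11.16 were thus the 2 occupied U6 genes outside the strongest regions of replicate 1. The other 9 were within them in both replicates.

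**Figure D2:**
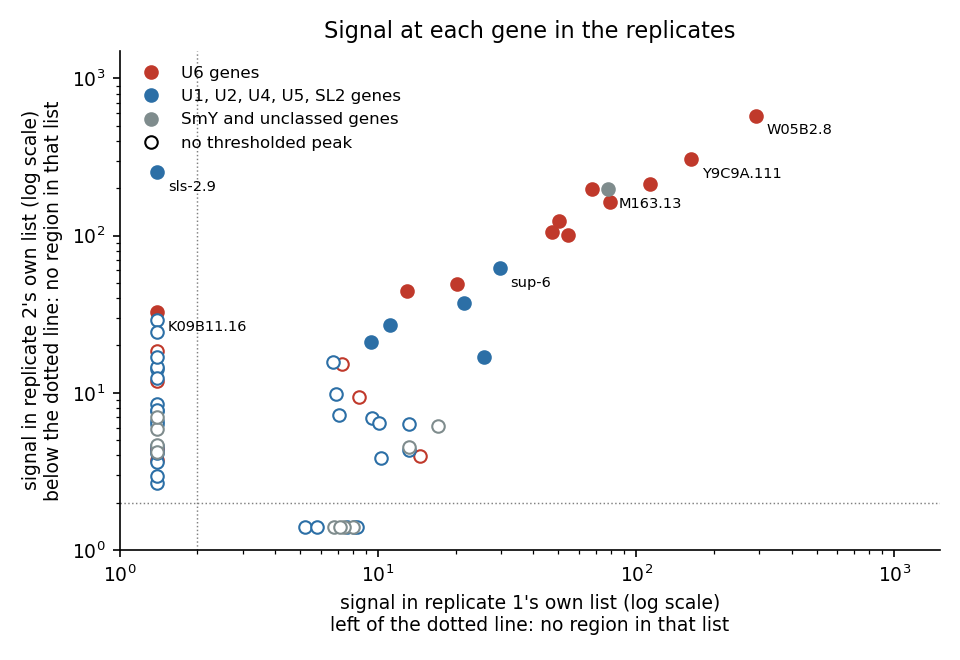
Signal of the strongest region over each gene in replicate 1's list against replicate 2's list, on log axes, with genes that lack a region in a list drawn beyond the dotted line. Filled points, genes with a thresholded peak, spread along a diagonal up to W05B2.8 (293 and 580), while sls-2.9 and K09B11.16 had no region in replicate 1.

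Of the 13 U6 genes without a thresholded peak, 5 had a region in the pooled relaxed list, which was called on both replicates together, and 6 had none in either replicate's list. K09B11.12 had a pooled signal of 23.1 (rank 1911 of 20662), and K09B11.13 and K09B11.14, which lie 249 bp apart on opposite strands, shared 1 region of 23.6 (rank 1860). Y17G9A.90 had 22.1 (rank 2035) and F54C8.8 had 12.7 (rank 7786). The thresholded list held exactly the strongest regions of the pooled list, so the regions over these copies fell below its lowest signal of 35.6. Their summits lay outside the gene at F54C8.8, K09B11.13 and K09B11.14. K09B11.11 and B0205.15 had a region in replicate 2's list only, at ranks 17520 and 13896. K09B11.15, F32D1.12, F35C11.9, F36A4.23, T20D3.12 and T20D3.13 had no region in any of the 4 lists.

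The promoters of the U6 genes differed between occupied and unoccupied copies in the word TATATA. All 11 occupied U6 genes held it, with its first base 31 or 30 bases before the start. Of the 13 unoccupied genes 5 held it, and those 5 were all in the K09B11 cluster. Split the other way, 11 of 16 U6 genes with TATATA were occupied (68.8%, interval 41.3 to 89.0%). Without it 0 of 8 were, which allows a share of up to 37.5% (exact upper limit 36.9%). The word and its window were chosen with the peaks known, so the split is a description. Most of the 8 genes without TATATA were diverged copies, 2 to 25 edits from the commonest U6 sequence. All 16 genes with it were within 1 edit of that sequence. Lack of TATATA thus largely coincided with divergence of the gene, and which of them went with the missing peaks was not tested. The few copies with the commonest sequence but no TATATA are in the near-identical pairs described below. TATATA reads the same on both strands. It stood in that window before 2.36% of the 46749 other nuclear genes and before 0.98% of tRNA genes, and before no gene of the U1, U2, U4, U5, SL1 and SL2 classes.

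The shorter word TGTC was found before 18 of 24 U6 genes and before 69 of 80 polymerase II class genes (86.3%) on the gene's strand, against 10.8% of other nuclear genes. The word was searched for alone, so a hit is not shown to be a proximal element. At T20D3.12 and T20D3.13, which overlap, the hit lay within the other gene. At K09B11.15 it stood 46 bases before TATATA, against 25 at the other U6 genes holding both words. On either strand the counts were 19 and 70, and 18.5% of other nuclear genes. The word was therefore common to both polymerases' snRNA genes, while TATATA was held by U6 genes and by 2 other members, M163.13 and 1 SmY gene. C28A5.7 and K09C6.12, both occupied, had no TGTC in the window but GTC in the same place. In 15 of the 16 U6 genes with TATATA, GTC stood exactly 24 bases before it. The exception was the unoccupied K09B11.15.

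The ends of the genes also divided the classes. TTTT, read on the gene's strand in the last 6 bases of the gene and the 10 after it, was present in 23 of 24 U6 genes and in 1 of 80 polymerase II class genes. Transcription by polymerase III ends at such T runs. The word was present in 93.8% of tRNA genes and 29.0% of all other nuclear genes. Inside the gene, more than 10 bases from its end, TTTT was present in 1 of 24 U6 genes and 79 of 80 polymerase II class genes, against 50.7% of other genes of 60 to 200 bp.

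**Figure D3:**
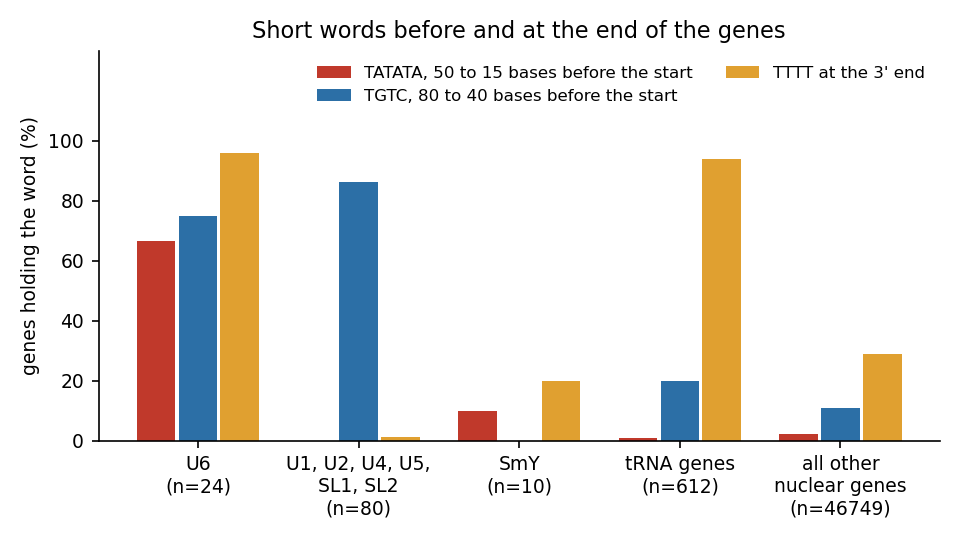
Percent of genes holding TATATA 50 to 15 bases before the start, TGTC 80 to 40 bases before the start, and TTTT at the 3' end, in 5 sets of genes. U6 genes held TATATA in 66.7% of cases and the polymerase II classes in none, while TGTC was common to both.

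Near-identical pairs gave the closest comparison between U6 copies. F54C8.9 and F54C8.8 have the same 102-base gene, lie 1746 bp apart in introns of F54C8.6, and differ in 1 of the 80 bases before the start, A54G, counted from 1 at the 5′ end of the printed stretch with the base of F54C8.9 first. That base lies inside TATATA. F54C8.9 had a pooled signal of 55.7 and F54C8.8 had 12.7, and in replicate 2 the values were 44.7 and 11.8. In replicate 1, F54C8.9 had 13 and F54C8.8 no region. The regions over F54C8.8 had their summits outside the gene, 151 bp before its start in the pooled list and 173 bp after it in replicate 2. The pooled summit at F54C8.9 lay inside the gene, 81 bp from the start, but its summits in the replicates did not. The share of 32-base words found once in the genome, over the gene and 200 bp on each side, was 53.3% at F54C8.9 and 55.4% at F54C8.8. The neighbour F54C8.10, whose promoter keeps TATATA and differs from that of F54C8.9 at 3 of 80 bases, had a pooled signal of 73.1 and a unique share of 77.5%.

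A second pair lay on chromosome IV. Y17G9A.85 and Y17G9A.90, 2076 bp apart, carry the commonest U6 sequence, the first without its last base. Their promoters differed at 10 of 80 bases, among them A51G inside TATATA, counted in the same way with the base of Y17G9A.85 first.
Y17G9A.85, with a peak, at chrIV:4864736-4864815: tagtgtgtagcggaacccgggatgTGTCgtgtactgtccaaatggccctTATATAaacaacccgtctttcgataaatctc
Y17G9A.90, without a peak, at chrIV:4866731-4866810: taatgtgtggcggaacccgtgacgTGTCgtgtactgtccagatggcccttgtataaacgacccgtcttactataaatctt
The pooled signals were 159 at Y17G9A.85 and 22.1 at Y17G9A.90. In replicate 1 they were 54.7 and 7.24, and in replicate 2 they were 102 and 15.3, so both replicates put Y17G9A.85 higher. The unique shares were 80% and 81.1%. Each pair is 1 case, and the part of the single base in the difference was not tested.

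The K09B11 cluster went against the split by TATATA. Its 6 U6 genes, all with the same gene sequence and all with TATATA, lie in introns of mam-3 between K09B11.11 (chrIV:13435785-13435886) and K09B11.16. The promoter of K09B11.16 differed from those of the other copies at 3 to 12 of 80 bases, with 3 at K09B11.14 and 4 at K09B11.11, and K09B11.15 lacked the TGTC nearest to TATATA. K09B11.16 alone passed the threshold, while K09B11.11 and K09B11.15 had no region in the pooled list. The replicates differed in the order of the copies. Replicate 1 had regions over K09B11.13 (14.6, rank 1715) and K09B11.14 (8.47, rank 9287) only, and none over K09B11.16. Replicate 2 had 32.5 at K09B11.16, 18.4 at K09B11.12, 9.38 at K09B11.14, 3.97 at K09B11.13 and 3.71 at K09B11.11. Unique shares in the cluster ran from 44.8% at K09B11.11, the lowest of any U6 gene, to 63.9% at K09B11.12, with K09B11.16 at 50.1%. How reads from such repeated sequence were placed is not given in the sources used here, and its part in the low signals was not tested.

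Over all U6 genes, the median unique share was 77.5% for occupied copies (range 50.1 to 83.9%) and 63.9% for unoccupied copies (range 44.8 to 98.7%), and the ranges overlapped. The diverged copies spanned unique shares from 57.8 to 98.7%. B0205.15 (98.7% unique, 20 edits from the commonest sequence), F32D1.12 (85.1%, 3 edits), F36A4.23 (81.5%, 2 edits), T20D3.13 (75.3%, 6 edits), T20D3.12 (75.1%, 15 edits) and F35C11.9 (57.8%, 25 edits) had no thresholded peak and no TATATA. T20D3.12 and T20D3.13 overlap on opposite strands inside an intron of coa-4. The share of bases that the assembly marks as repeat in the same windows had medians of 24.3% for occupied and 29.7% for unoccupied U6 genes. The first 90 bases of the commonest U6 sequence matched the genome at 18 places, all of them annotated members.

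**Figure D4:**
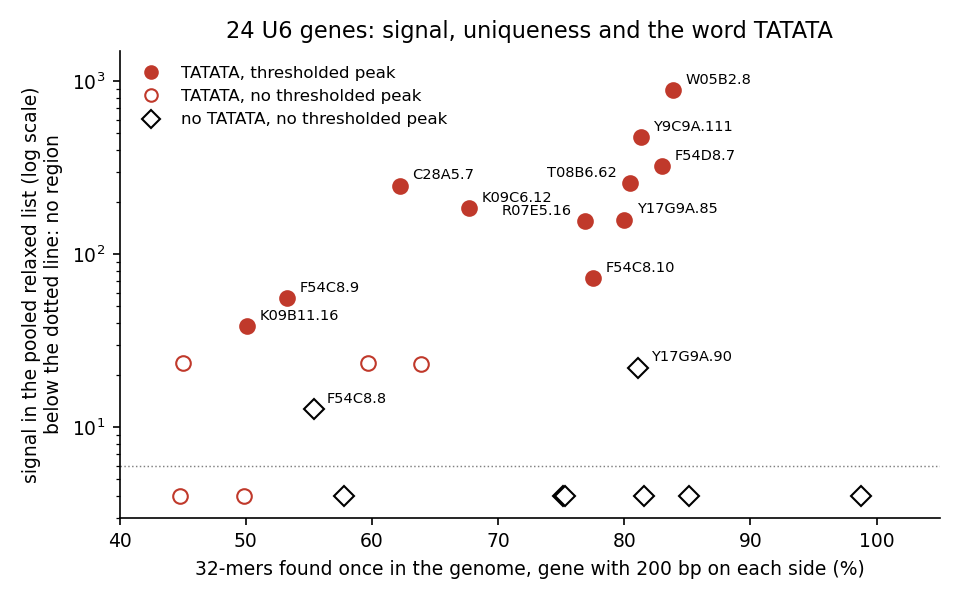
Signal in the pooled relaxed list (log axis) against the share of 32-mers found once in the genome for the 24 U6 genes, with genes that lack a region drawn below the dotted line. All filled points, the 11 genes with a thresholded peak, hold TATATA (circles), and genes without it (diamonds) reach at most 22.1, with unique shares from 55.4 to 98.7%.

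Summits at U6 lay on the genes themselves. All 11 thresholded summits fell inside the U6 gene, between 13 and 87 bp from its first base, with a median of 67 bp. In the replicates' own strongest regions the summit fell inside the gene in 7 of 9 cases in replicate 1 and 9 of 11 in replicate 2. The medians were 45 and 20 bp, so the position within the gene was not fixed to better than the gene's own length. At F54C8.9 the summits lay 122 bp from the start in replicate 1 and 119 bp before it in replicate 2. At the 6 occupied genes of the polymerase II classes, 1 summit fell inside the gene, and the summits ran from 145 bp before to 258 bp after the first base.

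**Figure D5:**
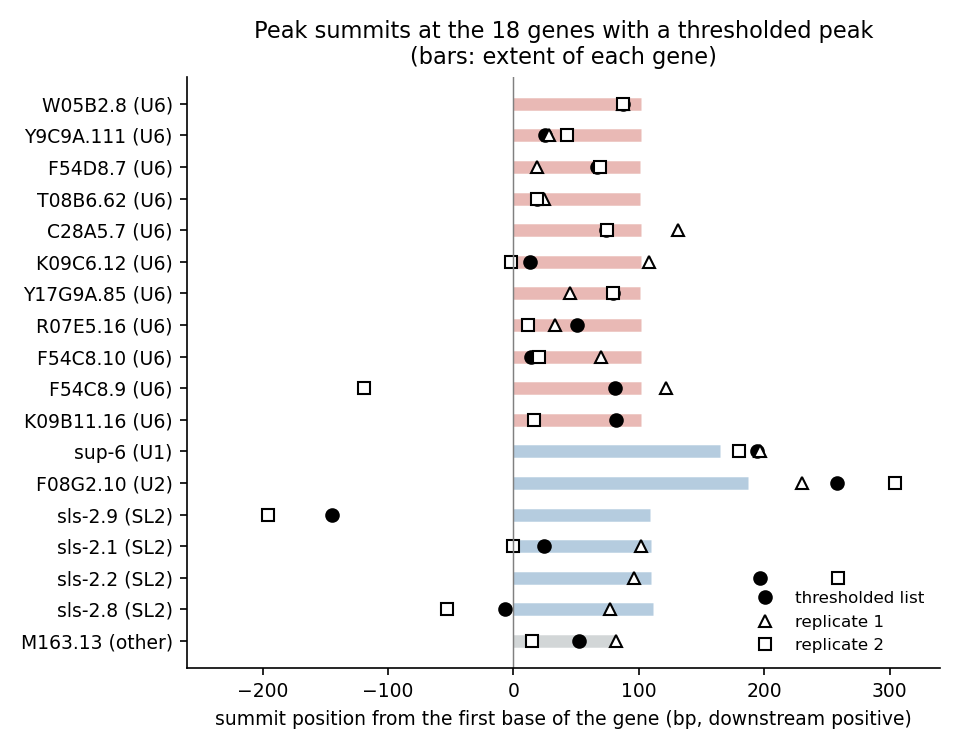
Position of the summit from the first base of each of the 18 genes with a thresholded peak, in the thresholded list (filled circles) and in each replicate's own list (triangles and squares), with bars for the extent of the gene. All 11 thresholded U6 summits fall within the gene, against 1 of 6 in the U1, U2 and SL2 genes.

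The U1 gene sup-6 (chrII:12944803-12944967), in an intron of F58G1.7 on the same strand, had a signal of 87.9, rank 805, with 29.6 in replicate 1 (rank 819) and 62.2 in replicate 2 (rank 803). It had the strongest peak of any polymerase II class gene away from polymerase III genes, and the replicates gave it nearly the same rank. Its summit lay 194 bp from the start, 30 bp past the end of the gene, and 197 and 180 bp from the start in the replicates. A U1 promoter is shown for contrast with U6: it holds TGTC, in capitals, and no TATATA.
sup-6 promoter at chrII:12944968-12945047: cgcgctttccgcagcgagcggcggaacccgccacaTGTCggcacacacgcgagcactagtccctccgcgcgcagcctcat

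Apart from sls-2.9, the other occupied genes had low signals. The SL2 gene sls-2.1 (chrII:5844865-5844974), with nep-25 nearest, had 53.8 (rank 1033), with 21.6 in replicate 1 (rank 998) and 37.5 in replicate 2 (rank 1011), and its thresholded summit lay inside the gene, 24 bp from the start. The SL2 gene sls-2.2 (chrII:5543598-5543707), near the ncRNA gene C17C3.23 and sls-2.3, had 40.6, with ranks 882 and 1609 in the replicates. The U2 gene F08G2.10 (chrII:13829305-13829491), overlapped by the ncRNA gene F08G2.15 on the opposite strand, had 38.4, with ranks 6837 and 1360. The SL2 gene sls-2.8 (chrIII:12250465-12250575), near the ncRNA gene Y75B8A.49, had 36.6, with ranks 3867 and 1199. Only sup-6 and sls-2.1 were thus within the strongest regions of both replicates. The median peak of the polymerase II classes lay at the 14.9th percentile of the thresholded list, with 33.2 and 18.2 for replicates 1 and 2 in their own strongest regions. The promoters of sls-2.1 and F08G2.10 are shown as those of an SL2 and a U2 gene with a peak, with TGTC in capitals, and neither held TATATA. F08G2.10 also holds a TGTC further from the start, left in lower case.
sls-2.1 promoter at chrII:5844785-5844864: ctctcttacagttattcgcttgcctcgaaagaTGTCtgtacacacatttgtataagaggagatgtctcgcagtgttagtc
F08G2.10 promoter at chrII:13829492-13829571: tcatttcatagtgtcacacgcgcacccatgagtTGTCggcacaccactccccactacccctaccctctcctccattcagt

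The strongest peak over a spliced leader gene, 387 at sls-2.9 (SL2, chrI:13297877-13297985), had its summit inside the tRNA gene M01E5.t1, 132 bp from sls-2.9. It overlapped only 53 bases of sls-2.9, and the summit lay 145 bp before the spliced leader gene. Replicate 1's list held no region over sls-2.9, and replicate 2 had 253. The remaining 5 occupied polymerase II class genes had no tRNA, 5S rRNA, RNase P, RNase MRP, Y RNA or U6 gene within 500 bp. Among the 68 such genes with none of these neighbours, 5 were occupied (7.35%).

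Genes met by only 1 replicate's strongest regions, and by no thresholded peak, were the U5 gene F38E11.10 near hsp-12.3 (29.1, rank 1149 in replicate 2, none in replicate 1), the SL2 gene sls-2.4 near R12E2.11 (24.5, rank 1259 in replicate 2, none in replicate 1) and the SmY gene smy-1 in an intron of C33A12.3 (17.1, rank 1269 in replicate 1, and 6.15, rank 7896, in replicate 2). None of the 3 was repeated at that level by the other replicate. The summits of these 3 regions lay outside the genes, by 171 bp at smy-1, 97 bp at F38E11.10 and 119 bp at sls-2.4. At smy-1 the region overlapped only 11 bases of the gene. In the pooled relaxed list, 28 of the 80 polymerase II class genes met a region (35%, interval 24.7 to 46.5%), against 27% of other nuclear genes of 60 to 200 bp.

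The 12 SL1 genes, whose product supplies the commoner spliced leader, met no region in any of the 4 lists. They lie in the tandem repeat on chromosome V that also holds the 5S rRNA genes, and 10 of the 12 have a 5S gene within 500 bp, at 173 or 177 bp. Their median unique share was 0%, with 20.6% at sls-1.12 as the highest. Most of these copies had no word of that length found once, and the part of this in the absence of regions was not tested. The median unique shares of the other polymerase II classes were 58.4% for U2, 74.5% for U1, 79.5% for U4, 86.0% for U5 and 89.9% for SL2. U4, U5 and SL2 were thus more unique than U6, at 75.2%. Among genes with over 50% unique words, 11 of 21 U6 genes and 6 of 60 polymerase II class genes were occupied.

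M163.13 (chrX:14476867-14476946), an 80-base gene that the annotation calls an snRNA and that held none of the core words, was occupied like a U6 gene. Its signal was 284, rank 451, with 78.0 in replicate 1 (rank 520) and 198 in replicate 2 (rank 433). The summit fell inside the gene, 52 bp from the start. Its promoter was the only 1 outside the U6 genes among all members with GTC placed 24 bases before TATATA. The promoter and the gene are shown because this pattern set it apart from the other 14 unclassed genes, with TGTC and TATATA in capitals.
M163.13 promoter at chrX:14476787-14476866: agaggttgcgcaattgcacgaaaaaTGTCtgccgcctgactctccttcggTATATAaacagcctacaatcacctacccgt
M163.13 gene at chrX:14476867-14476946: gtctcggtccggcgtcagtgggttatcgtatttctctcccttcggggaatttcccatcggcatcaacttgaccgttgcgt
The nearest genes were the ncRNA gene M163.15 and the protein-coding gene M163.5, both within 500 bp, and neither was overlapped by its peak. Its unique share was 98.7%.

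The genes for proteins that build, bind or transcribe these RNAs were examined at their 5' ends. Of 42 listed genes for Sm and LSm proteins, SNAP complex subunits, TFIIIB subunits, snRNP proteins and U6 maturation factors, 39 were in the annotation, and 2 of these (5.13%) had a thresholded peak within 250 bp of the 5' end, against 1.8% of protein-coding genes. The genes were snpc-3.4, of the SNAP complex family, with a signal of 41.1 and a summit 24 bp before the start, and snr-6, an Sm protein gene, with 42.4 and a summit 319 bp before the start. Both were near the lower end of the list, at ranks 1203 and 1182. The strongest regions of replicate 1 met 6 of the 39 and those of replicate 2 met 0, so no count for these genes held in both replicates.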

How the data were processed

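The authors deposited narrowPeak lists on ce11. The file list says that a control entered every call, that the relaxed lists cover each replicate and the pool, and that the thresholded list was derived from those 3. Aligner, peak caller, read length and read totals were left unstated (not given in the sources used here), so the depth is unknown. What column 7 holds is a signal value per peak, deposited as the authors' caller wrote it, and was used only to describe and rank peaks within a list. The pooled list held 20662 regions and each replicate's list 30000. The ce10 lists were not used.

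Genes and sequences are RefSeq's for WBcel235, the same assembly as ce11, with WormBase release WS298 annotation. Classes were taken from the symbol (sls-1, sls-2, smy) or a core word: GATTAGC (U6), TCGCCAA (U1), TCGCTTC (U2), AGCTTTG (U4) and TGGTTCC (U5). The strongest overlapping peak stood for a gene. Uniqueness was the percent of 32-base words, over the gene with 200 bp on each side, found once on either strand. Words of 24 and 50 bases, each replicate alone, the 660 strongest peaks and stricter overlap were the main alternatives. Intervals are exact (Clopper-Pearson) at 95%, and a count of 0 allows 3. The samples are separate biological replicates per the labels, which give no more on how they were grown.

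Members, lists and sequence words were chosen with earlier results of these data known. Named were all U6 genes, all other members with a thresholded peak, and members met by either replicate's strongest regions, as many as thresholded peaks. Sequences from chromosome I and the sequence of the U6 genes themselves are not reported here. Overlaps, summit distances and uniqueness were tested on simulated data. Python 3.11.15, NumPy 2.4.6, SciPy 1.17.1, edlib 1.3.9.post1 and Matplotlib 3.10.9 were used.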

Additional observations from a re-analysis of the deposited data

How the results depend on the processing

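No paired analysis was possible because there was 1 group. Leaving out a replicate, by using the other replicate's strongest regions, gave 37.5 to 45.8% for occupied U6 genes and 3.75 to 7.50% for the polymerase II classes. The median percentile of peaks ranged from 54.7 to 57.6 at U6 genes and from 18.2 to 33.2 at the polymerase II classes. The median U6 summit ranged from 20 to 45 bp, against 67 bp in the thresholded list. Occupied minus unoccupied U6 genes differed in median unique share by 13.6 to 20.3 percentage points, and the protein genes with a peak numbered 0 to 6. With words of 50 bases in the main setting, that difference in unique share was 9.68 percentage points, and with words of 24 bases 14.8. With the 660 strongest peaks, 1.25% of the polymerase II class genes were occupied, and 33.3% of U6 genes. The only such polymerase II class gene was sls-2.9, where the summit lay in the tRNA gene M01E5.t1. Within 100 bp of the 5' end, 1 protein gene had a peak. U6 genes with TATATA alone, an alternative added after the data were seen, gave 68.8%. U6 genes within 2 edits of the commonest sequence, added likewise, gave 57.9%. The cause of these shifts was not tested. Of 32 alternatives, 22 stayed within the exact interval of a share, within 1 SD of the replicates' values for a median, or within 1.5 times a count. U6 genes could not be taken from RefSeq product names, which name no class. Depth is unknown, so a gene without a region is not shown to lack the polymerase.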

Other observations

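The spacing seen at U6 genes, GTC exactly 24 bases before TATATA within 50 to 15 bases of the start, was also looked for before all other nuclear genes, after the peaks at U6 had been seen. It stood before 25 of 46749 genes (0.0535%), and 14 of the 25 were occupied (56.0%, exact 95% interval 34.9 to 75.6%), by 13 distinct peaks, none of them shared with a member. Of 1076 genes with TATATA in the window without that spacing, 31 were occupied (2.88%, interval 1.97 to 4.06%), against 3.82% of all nuclear genes. Of the 25 genes with the spacing, 17 were 60 to 200 bp long. Genes of that length outside the snRNA set were occupied in 15.1% of cases, and in 8.02% with polymerase III genes set aside. The 14 included the RNase P RNA gene rpr-1 (signal 455), the RNase MRP RNA gene mrpr-1 (499) and the Y RNA gene yrn-1 (257), which are known polymerase III genes with promoters before the gene. They also included W01D2.9 (523), F08G2.13 (411), C18C4.17 (244), CD4.18 (231) and W01D2.8 (212), which the annotation lists as ncRNA, and the miRNA gene mir-2214 (325). The summits at W01D2.9 and CD4.18 lay outside those genes, at -229 and 230 bp from the start. The 3 weakest were the ncRNA gene F08G2.12 (42.7), the protein-coding gene Y39E4B.6 (36.4) and the snoRNA gene T09B9.10 (35.8), near the lower end of the thresholded list.

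M163.13 stood in a row of such genes. The ncRNA genes M163.15 (chrX:14477196-14477267) and M163.12 (chrX:14477545-14477622) follow it on the same strand, both had the same spacing before the start, and 1 peak with a signal of 146 overlapped both. Its summit lay 68 bp from the start of M163.12 and 417 bp from that of M163.15.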
